A study of Mus musculus with 18 samples.

Results

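Imprinted genes, which are expressed mainly from the maternal or the paternal copy, were followed in C3H10T1/2 cells carrying K36M mutant histone H3, in cells given siRNAs against H3K36 methyltransferases, and in tumors grown from mutant cells. They were chosen by symbol from a list of 41 imprinted mouse genes, and 37 of these had a row among the 20325 genes of the deposited tables. Of the 37, 22 are known as paternally expressed and 15 as maternally expressed genes. The noncoding RNAs H19, Meg3, Rian and Kcnq1ot1 were not analysed here. The values give the summed RNA of a gene and not its alleles.

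At an imprinted domain a DNA segment is methylated in one parental germ line only, and the mark is kept through development, so that the neighbouring genes are read mainly from one parental copy. The family is known for genes that control fetal growth and the commitment of mesenchymal cells, among them growth factor signalling genes, a cell cycle inhibitor and zinc finger factors. Lysine 36 of histone H3 carries methyl groups written by Nsd1, Nsd2 and Setd2, some of which are bound by DNA methyltransferases, and methionine at this position acts as an inhibitor of the enzymes.

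C3H10T1/2 is a mouse line of mesenchymal cells, derived from C3H embryos, that can form several lineages. The 18 RNA-seq libraries came from tumors of H3.3K36M cells (n = 6), from cells stably carrying H3.1K36M (n = 2), H3.3K36M (n = 2) or wild-type H3.3 (n = 2), each with a FLAG-HA tag, and from parental cells given siRNAs against Nsd1, Nsd2 (listed as Whsc1) and Setd2 together (HMT siRNA, n = 3) or a scramble siRNA (control siRNA, n = 3). Cultured cells were at passage 10 to 15. For the tumors 2000000 H3.3K36M cells in Matrigel went under the skin of both flanks of athymic female SCID mice aged 6 to 8 weeks, and growths were taken after 5 to 6 weeks. Each histone genotype is 1 line, the labels do not name separate cultures, and tumors may share a host, so p-values measure only the spread between these libraries. The host's own mouse cells also contribute RNA to a tumor.

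Depth was 13993307 to 56041798 estimated reads per library. Values are normalised estimated counts, called signal here, not divided by gene length, so levels of different genes are not compared. Fold changes are log2 differences of signal plus 1, with the standard error (SE), and a gene is called at a Benjamini-Hochberg adjusted p under 0.05 in limma over all genes tested. In HMT siRNA cells the targeted Setd2, Whsc1 and Nsd1 fell by 1.52, 0.59 and 0.52 on the log2 scale (SE 0.05, 0.04 and 0.04). All 10 mesenchymal markers were present in each group. Tumor 6 stood apart: in its 5 pairs with other tumors the per-gene chi-square over counting noise was 119 to 307, against 25.0 to 93.4 in the other 10 pairs, and the called tumor changes of members are given with and without it. Snrpn and Snurf share 1 transcript, and their rows held equal values in every wild-type, HMT siRNA and control siRNA library of the siRNA table, so the division of reads between them is uncertain. Mcts2 and Zrsr1 are copies of other genes that lie inside a host gene's intron, and their counts are likewise uncertain. Strand use in counting was not given in the sources used here.

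Peg3 and Plagl1, which moved one way in the mutant and the other way in the knockdown, and Dlk1 and Mest, which were lower in both, are shown by the 250 bases before a transcript start. The sequences are RefSeq's on GRCm38.p6, another build than the mm9 of the tables, and capitals mark each CG, the site of DNA methylation. The Peg3 window is chr7:6730420-6730669 on the minus strand, with 8 CG. The Plagl1 window is chr10:13090582-13090831 on the plus strand, with 19 CG. The Dlk1 window is chr12:109452573-109452822 on the plus strand, with 8 CG. The Mest window, that of the second listed start, is chr6:30737800-30738049 on the plus strand, with 14 CG.
Peg3: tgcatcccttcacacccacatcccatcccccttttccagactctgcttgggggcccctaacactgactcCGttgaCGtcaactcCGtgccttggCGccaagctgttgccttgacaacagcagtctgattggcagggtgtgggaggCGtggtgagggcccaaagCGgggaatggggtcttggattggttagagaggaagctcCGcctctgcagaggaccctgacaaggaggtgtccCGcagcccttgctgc
Plagl1: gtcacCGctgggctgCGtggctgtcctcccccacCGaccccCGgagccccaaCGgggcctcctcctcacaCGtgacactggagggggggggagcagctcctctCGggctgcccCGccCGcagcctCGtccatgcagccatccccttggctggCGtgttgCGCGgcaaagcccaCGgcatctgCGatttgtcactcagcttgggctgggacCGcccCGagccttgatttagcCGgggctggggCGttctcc
Dlk1: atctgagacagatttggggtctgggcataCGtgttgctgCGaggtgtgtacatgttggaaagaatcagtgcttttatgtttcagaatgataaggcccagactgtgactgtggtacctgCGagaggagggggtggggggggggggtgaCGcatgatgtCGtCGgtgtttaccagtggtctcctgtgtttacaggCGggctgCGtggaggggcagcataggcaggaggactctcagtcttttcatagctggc
Mest: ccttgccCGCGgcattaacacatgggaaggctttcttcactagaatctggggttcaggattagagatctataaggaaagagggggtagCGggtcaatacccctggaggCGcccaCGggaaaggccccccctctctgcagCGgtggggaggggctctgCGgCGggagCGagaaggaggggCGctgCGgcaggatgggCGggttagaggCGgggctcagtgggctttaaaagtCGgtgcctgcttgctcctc
CG reads the same on both strands. Of all 32851 promoter windows of this length, 43.0% held at least as many CG as the Peg3 and Dlk1 windows, 29.4% at least as many as the Mest window and 19.7% at least as many as the Plagl1 window. The windows of 32 members, 47 in all, had a median of 10 CG with a range of 0 to 40, against a median of 6 over all windows. The paternally expressed Peg3 and Usp29 lie head to head, and their windows share 163 bases. These counts describe the DNA letters, and no methylation was measured in these libraries.

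The comparison of H3.3K36M with H3.3 wild-type cells shows how imprinted genes stood in a line with the mutant histone. Peg3, its neighbour Zim1, Plagl1, Snrpn, Gatm and Asb4 were higher in H3.3K36M cells, and Mest and Dlk1 were lower by more than 2-fold. Of 37 members, 24 passed the filter on low values. Among them 8 rose, 10 fell and 6 were not called, and 70.8% of all 13186 genes tested were called, 37.5% higher and 33.3% lower. Calls of at least 2-fold in the fitted values were made for 8 of the 24 and for 20.4% of all genes. The median log2 difference was -0.08 over the members and 0.02 over all genes. Of the 16 paternally expressed members tested 5 rose and 7 fell, with a median of -0.12, and of the 8 maternally expressed 3 rose and 3 fell, with a median of -0.04. Snrpn, Zim1, Gatm and Asb4 passed the filter only through H3.3K36M libraries, so their rises are no support for a count. Of the other 20 members 4 rose and 10 fell, with a median of -0.14. The 3 maternally expressed rises were Zim1, Gatm and Asb4, so none remains among the other 20, and the medians by allele include these members too. Of the calls of at least 2-fold, only those of Peg3, Plagl1, Mest and Dlk1 remain among the other 20.

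Of the zinc finger genes, Peg3 differed most. Its signal was 642 and 650 in H3.3K36M cells, against 7.94 and 9.60 in wild-type cells. The groups were far apart, with a log2 difference of 6.05 (SE 0.13, adjusted p = 6.65e-18). Zim1, which lies next to Peg3 and is maternally expressed, had 12.3 and 10.8 in H3.3K36M cells and was listed at 0 in both wild-type libraries (adjusted p = 0.000341, and 0.000201 with no filter on low values). Usp29, the ubiquitin protease gene on the other side of Peg3, stayed near the floor at 2.74 and 4.14 in H3.3K36M cells, against 2.88 and 2.13 in wild-type cells, and was not tested. Plagl1, a zinc finger transcription factor that can stop the cell cycle, had 1015 and 1069 in H3.3K36M cells, against 164 and 164 in wild-type cells. Both mutant libraries were above both wild-type libraries, and the log2 difference was 2.66 (SE 0.19, adjusted p = 6.37e-10).

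Dlk1 and Mest are genes of mesenchymal and fat cell development. Dlk1, a membrane protein that holds preadipocytes in an undifferentiated state, had 99.5 and 91.3 in H3.3K36M cells, against 356 and 352 in wild-type cells. It fell by 1.88 on the log2 scale (SE 0.29, adjusted p = 1.29e-05). Mest, a hydrolase-like protein of the endoplasmic reticulum linked to fat cell growth, had 58.3 and 56.8 in H3.3K36M cells, against 228 and 211 in wild-type cells. Replicates lay close together and the groups did not overlap, with a log2 difference of -1.91 (SE 0.07, adjusted p = 1.65e-14). Copg2, a coat protein of Golgi vesicles whose gene lies beside Mest, fell by 0.53 (SE 0.05, adjusted p = 1.08e-08).

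Among regulators of growth, Grb10, an adaptor that dampens insulin and Igf1 receptor signalling, had 10537 and 10647 in H3.3K36M cells, against 15576 and 15354 in wild-type cells. It fell by 0.55 (SE 0.04, adjusted p = 2.87e-10). Cdkn1c, the cyclin-dependent kinase inhibitor p57, had 2.63 and 0.719 in H3.3K36M cells and was listed at 0 in both wild-type libraries, too low to be tested. Ndn, a MAGE family protein that restrains proliferation, had 1301 and 1298 in H3.3K36M cells, against 934 and 947 in wild-type cells, a rise of 0.47 (SE 0.06, adjusted p = 1.7e-06). Impact, a regulator of the amino acid sensor Gcn2, fell by 0.44 (SE 0.05, adjusted p = 3.18e-07).

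In the Peg10 and Sgce domain the neighbours moved in different directions. Peg10, a gene derived from a retrotransposon and needed in the placenta, had 502 and 515 in H3.3K36M cells, against 398 and 387 in wild-type cells, and rose by 0.37 (SE 0.08, adjusted p = 0.000244). Sgce, the epsilon-sarcoglycan of the cell membrane, had 918 and 913 in H3.3K36M cells, against 1474 and 1485 in wild-type cells, and fell by 0.69 (SE 0.06, adjusted p = 4.13e-09). Asb4, a substrate adaptor of a ubiquitin ligase, had 25.4 and 28.0 in H3.3K36M cells, against 2.98 and 2.13 in wild-type cells, a rise of 2.97 (SE 0.63, adjusted p = 0.000385, and 0.00142 with no filter). The 3 genes lie near each other on chromosome 6 and the changes of Peg10 and Asb4 had the opposite sign to that of Sgce.

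Of the remaining genes, Snrpn, which encodes a splicing protein of neurons, had 18.9 and 23.0 in H3.3K36M cells, against 0.496 and 0 in wild-type cells (adjusted p = 4.03e-05, and 4.48e-06 with no filter). Gatm, the first enzyme of creatine synthesis, had 16.2 and 10.8 in H3.3K36M cells and was listed at 0 in both wild-type libraries (adjusted p = 0.000259, and 1.2e-05 with no filter). Both were low in every cultured library. The splicing factor gene Zrsr1 fell by 0.38, the Wnt pathway gene Peg12 by 0.43, Mcts2 by 0.24 and the tetraspanin gene Cd81 by 0.13. These small changes rested in part on single libraries: the Peg12 call was lost without wild-type replicate 1 (adjusted p = 0.0603) or H3.3K36M replicate 2 (0.0867), the Mcts2 call without wild-type replicate 2 (0.323) or either H3.3K36M replicate (0.119 and 0.0562), and the Cd81 call without H3.3K36M replicate 2 (0.0505). Gnas, Nnat, Mkrn3, Slc38a4, Slc22a18 and Inpp5f were not called. Gnas was called lower in other settings, among them the 4 libraries of the H3.3 table alone (adjusted p = 0.0162) and the 6 cultured libraries of the xenograft table (0.0016), and Mkrn3 was with quantile normalisation (-0.49, adjusted p = 0.040).

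**Figure D1:**
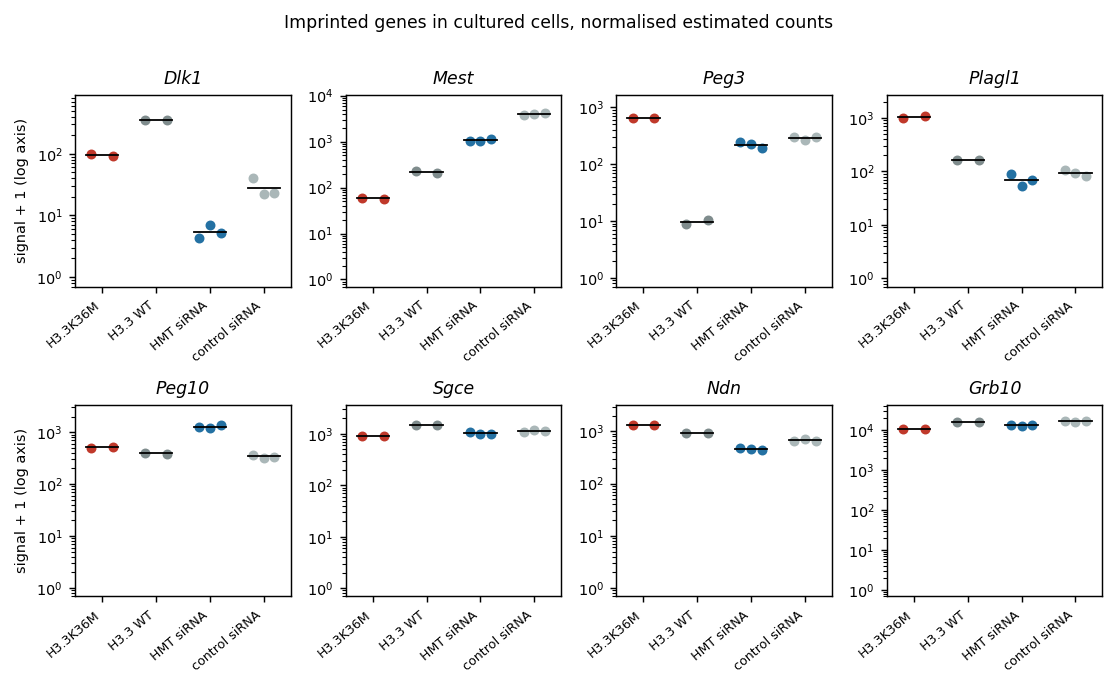
Signal plus 1 on a log axis for 8 imprinted genes in H3.3K36M, H3.3 wild-type (WT), HMT siRNA and control siRNA cells; each point is a library and each bar the mean of the log values. Peg3 is near 650 in H3.3K36M libraries and under 10 in wild-type libraries, while Mest is lowest in H3.3K36M cells and highest in control siRNA cells.

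The wild-type histone line itself stood far from the parental cells at several members. Peg3 was 32.6-fold lower in wild-type H3.3 cells, at 7.94 and 9.60, than in control siRNA cells, at 301, 261 and 296. Mest was 17.8-fold lower in wild-type H3.3 cells than in control siRNA cells, at 3718, 3926 and 4097. Dlk1 was 12.7-fold higher in wild-type H3.3 cells than in control siRNA cells, at 39.5, 21.3 and 22.5. These differences between a stable line and siRNA-treated parental cells were not tested, and line, passage and treatment cannot be told apart in them. With control siRNA cells in place of the wild-type line, a setting chosen after seeing the data, Dlk1 was higher in H3.3K36M cells by 1.80 on the log2 scale, the reverse of its change against the wild-type line. In that setting Peg3 was higher by 1.18 and Plagl1 by 3.48, and Mest was lower, at -6.06. Snrpn and Gatm were also higher, by 3.94 and 3.83. Both passed the filter only through H3.3K36M libraries, so their calls are no support. Peg12 lost its call and turned to 0.10 (adjusted p = 0.521).

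Knockdown of the 3 methyltransferases asks which of these genes respond when the RNA of the enzymes themselves is lowered. In HMT siRNA cells Dlk1 and Mest were again lower by more than 2-fold, Peg10 was higher by more than 2-fold, and Peg3, Plagl1 and Ndn were lower. Of 24 members tested, 3 rose, 14 fell and 7 were not called, and 63.5% of all genes were called, 31.9% higher and 31.7% lower. Calls of at least 2-fold were made for 2 higher members, Peg10 and Asb4, and 2 lower, Dlk1 and Mest. Of all genes 10.2% had such a call. The median log2 difference was -0.31 over the members and 0.00 over all genes. Of the 16 paternally expressed members tested, 1 rose and 10 fell, with a median of -0.40, and of the 8 maternally expressed 2 rose and 4 fell, with a median of -0.17. Without the 4 members that passed the filter only through H3.3K36M libraries, 2 rose and 14 fell, with a median of -0.40. Asb4 was 1 of these 4, which leaves Cd81 as the only maternally expressed rise.

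Dlk1 had 3.32, 5.97 and 4.13 in HMT siRNA cells, against 39.5, 21.3 and 22.5 in control siRNA cells. All knockdown libraries were below all control libraries, with a log2 difference of -2.37 (SE 0.24, adjusted p = 6.79e-08). Mest had 1013, 1050 and 1115 in HMT siRNA cells, against 3718, 3926 and 4097 in control siRNA cells, and fell by 1.88 (SE 0.06, adjusted p = 3.94e-15). Peg10 had 1279, 1189 and 1352 in HMT siRNA cells, against 366, 324 and 336 in control siRNA cells. It rose by 1.89 (SE 0.06, adjusted p = 9.71e-15), while its neighbour Sgce fell by 0.15 (SE 0.05, adjusted p = 0.00954), a call lost without HMT siRNA replicate 2 (adjusted p = 0.0531). Asb4 had 5.53, 6.71 and 9.29 in HMT siRNA cells, against 4.55, 2.51 and 0 in control siRNA cells. These are values of a few reads, and the call (adjusted p = 0.0124) was lost without HMT siRNA replicate 3 (0.0543) or control siRNA replicate 3 (0.0718).

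Of the zinc finger genes, Peg3 and Plagl1 were called lower by small amounts and Zim1 was not called (adjusted p = 0.749). Peg3 had 239, 229 and 191 in HMT siRNA cells, against 301, 261 and 296 in control siRNA cells, and fell by 0.38 (SE 0.11, adjusted p = 0.00469). Plagl1 had 89.6, 52.1 and 69.1 in HMT siRNA cells, against 108, 92.9 and 79.6 in control siRNA cells. The groups overlapped for Plagl1, whose log2 difference was -0.43 (SE 0.15, adjusted p = 0.02). The Plagl1 call was lost without HMT siRNA replicate 2 (0.142), without control siRNA replicate 1 (0.0973) or 2 (0.0532), with quantile normalisation (0.090) and without the trend and robust options (0.0849).

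Grb10, Ndn and Peg12 fell. Grb10 had 13129, 12847 and 12925 in HMT siRNA cells, against 17056, 16104 and 17036 in control siRNA cells, a fall of 0.37 (SE 0.03, adjusted p = 6.38e-09). Ndn had 478, 460 and 448 in HMT siRNA cells, against 662, 704 and 654 in control siRNA cells, a fall of 0.54 (SE 0.05, adjusted p = 2.02e-08). Peg12 had 55.3, 57.4 and 51.6 in HMT siRNA cells, against 121, 95.4 and 112 in control siRNA cells, a fall of 0.98 (SE 0.12, adjusted p = 9.9e-07). No knockdown library overlapped a control library for these 3 genes. Cdkn1c was listed at 0 in all 6 siRNA libraries.

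Zrsr1 fell by 0.67, Slc22a18, a transporter gene of the Kcnq1 domain, by 0.54, Copg2 by 0.46 and Impact by 0.43. Mkrn3, a RING finger gene known for restraining puberty, fell by 0.50 and Gnas, the stimulatory G protein alpha subunit, by 0.09, while Cd81 rose by 0.10. Calls on Mkrn3, Gnas and Cd81 did not hold throughout. The Mkrn3 call was lost without HMT siRNA replicate 1 (adjusted p = 0.0588) and with quantile normalisation (0.121). The Cd81 call was lost without HMT siRNA replicate 2 (0.0716) or control siRNA replicate 1 (0.0505) and with quantile normalisation (0.346). The Gnas call was lost without HMT siRNA replicate 3 (0.116), without control siRNA replicate 1 (0.0556) or 2 (0.0636) and without the trend and robust options (0.0692).

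**Figure D2:**
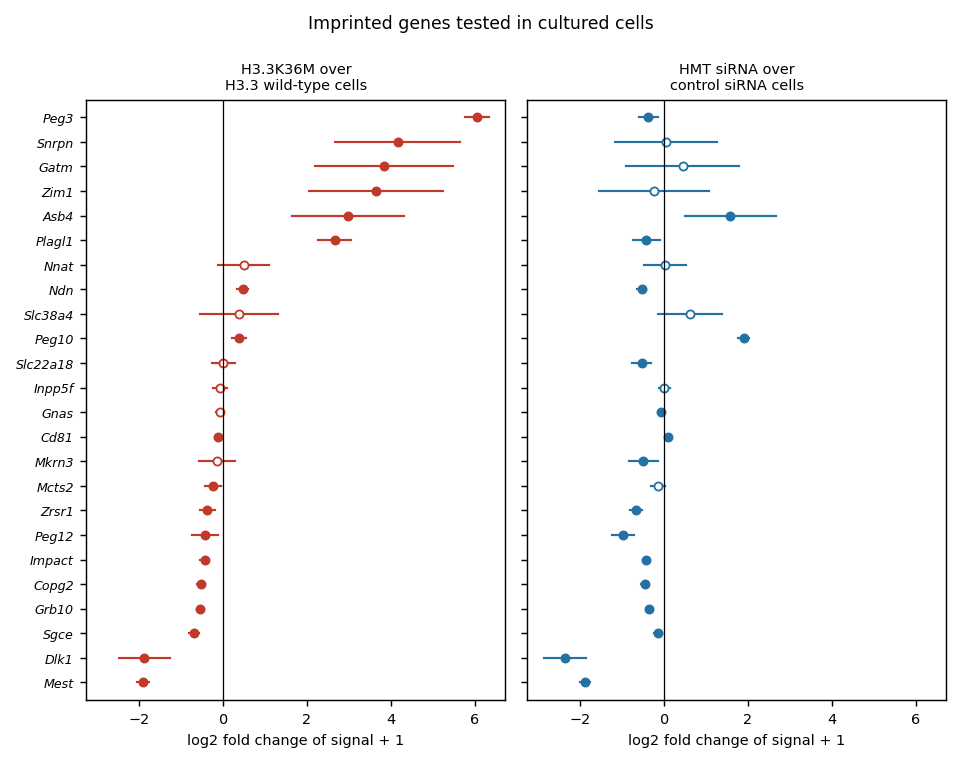
Log2 fold change of signal plus 1 for the 24 imprinted genes tested, H3.3K36M over wild-type cells at left and HMT siRNA over control siRNA cells at right, ordered by the left panel; lines are 95% intervals, filled points are called and open points are not. Peg3 stands at 6.05 in the mutant and at -0.38 in the knockdown, whereas Mest stands near -1.9 in both. The reference cells of the panels themselves differed 32.6-fold for Peg3 and 17.8-fold for Mest.

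The mutant and knockdown comparisons share no library. Of the 14 members called in both, 10 moved in the same direction: Dlk1, Mest, Grb10, Sgce, Impact, Peg12, Copg2 and Zrsr1 fell in both, and Peg10 and Asb4 rose in both. This is 71.4% of the 14, against 82.8% of the 6457 genes called in both over the whole table. Asb4 passed the filter only through H3.3K36M libraries, so its place among the 10 is no support. Peg3, Plagl1 and Ndn rose in the mutant and fell in the knockdown, and Cd81 moved the opposite way. The difference between the responses was tested as an interaction, in which 9 members were higher in the mutant response, 4 were lower and 11 were not called, with 54.9% of all genes called. Without the 4 members that passed the filter only through H3.3K36M libraries, 6 were higher and 4 lower. Of the 16 paternally expressed members 6 were higher and 2 lower, and of the 8 maternally expressed 3 were higher and 2 lower. This split includes those 4, and among the other members Slc22a18 was the only maternally expressed one called higher. The difference was 6.44 for Peg3 (SE 0.17, adjusted p = 5.83e-16), 3.09 for Plagl1 (SE 0.24, adjusted p = 6.22e-09), 1.01 for Ndn (SE 0.08, adjusted p = 3.5e-09) and -1.52 for Peg10 (SE 0.10, adjusted p = 2.15e-10). Snrpn (adjusted p = 0.000916), Zim1 (0.00267) and Gatm (0.00823) were also called higher in the mutant response, the last of them not without H3.3K36M replicate 1 (0.0565). These genes passed the filter only through H3.3K36M libraries, and with no filter their adjusted p was 9.05e-05, 0.00141 and 0.000504. For Mest the difference was -0.03, with a 95% interval of -0.22 to 0.16, and for Dlk1 it was 0.49, with an interval of -0.30 to 1.27, neither of them called. The responses have different reference cells, and the wild-type line was 32.6-fold below control siRNA cells for Peg3 and 17.8-fold below for Mest. With control siRNA cells as the reference, H3.3K36M cells differed by 1.18 for Peg3, 3.48 for Plagl1 and -6.06 for Mest. The part of the reference line in these differences was not tested. Grb10 fell more in the mutant by 0.18 (SE 0.05, adjusted p = 0.00475). Peg12, Slc22a18 and Zrsr1 were called higher and Sgce and Cd81 lower. The Zrsr1 call was lost without either wild-type replicate (adjusted p = 0.0748 and 0.0817), H3.3K36M replicate 1 (0.124), HMT siRNA replicate 2 (0.0585) or 3 (0.0613), control siRNA replicate 3 (0.0715) or the trend and robust options (0.0569). The Peg12 call was lost without wild-type replicate 2 (0.0602) or H3.3K36M replicate 1 (0.0835) and with quantile normalisation (0.143), and the Slc22a18 call without H3.3K36M replicate 2 (0.0505) and with quantile normalisation (0.0509).

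H3.1K36M cells place the same substitution in the other histone H3 form, which is laid down mainly during DNA replication. They were compared with H3.3 wild-type and with H3.3K36M cells in a table scaled separately, so the same H3.3 libraries carry other levels than above. The comparisons share libraries with each other and with that of H3.3K36M and wild-type cells, so their values stand side by side with no test of likeness. Against wild-type cells 11 members rose, 8 fell and 5 were not called, with 79.5% of all 13404 genes tested called, 41.1% higher, 38.4% lower and 24.8% by at least 2-fold. Against H3.3K36M cells 9 rose, 10 fell and 5 were not called, with 68.2% called, 35.4% higher, 32.8% lower and 13.1% by at least 2-fold. The median log2 difference over the members was 0.11 against wild-type cells, where all genes had 0.02, and -0.02 against H3.3K36M cells, where all genes had 0.01. Of the 16 paternally expressed members 8 rose and 6 fell against wild-type cells, with a median of 0.11, and 6 rose and 8 fell against H3.3K36M cells, with a median of -0.24. Of the 8 maternally expressed 3 rose and 2 fell in each, with medians of 0.10 and 0.09. Snrpn, Zim1, Gatm and Asb4 passed the filter only through the K36M lines, and of the other 20 members 8 rose and 8 fell against wild-type cells and 9 rose and 8 fell against H3.3K36M cells. Their medians were 0.00 and -0.01. The splits by allele and the medians before these include all 24. Among the other 20, Cd81 was the only maternally expressed rise against wild-type cells and Slc22a18 the only such fall against H3.3K36M cells.

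Dlk1 was almost absent from H3.1K36M cells, at 2.09 and 0, against 131 and 120 in H3.3K36M cells and 478 and 477 in wild-type cells. The 3 lines were clearly apart (adjusted p = 1.24e-05 against H3.3K36M and 1.36e-06 against wild-type cells). Mest had 197 and 204 in H3.1K36M cells, against 76.9 and 75.0 in H3.3K36M cells and 307 and 286 in wild-type cells. H3.1K36M cells thus lay between the other lines for Mest, 1.39 above H3.3K36M (SE 0.11, adjusted p = 3.9e-08) and 0.56 below wild type (SE 0.11, adjusted p = 0.000251).

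Peg3 had 337 and 328 in H3.1K36M cells, against 847 and 858 in H3.3K36M cells and 10.7 and 12.99 in wild-type cells. Plagl1 had 348 and 361 in H3.1K36M cells, against 1338 and 1411 in H3.3K36M cells and 220 and 222 in wild-type cells. Both genes were above the wild-type line, by 4.70 and 0.68 on the log2 scale (SE 0.12 and 0.07, adjusted p = 2.93e-14 and 2.49e-07), and below H3.3K36M cells, at -1.36 and -1.95 (SE 0.12 and 0.07, adjusted p = 1.64e-07 and 4.77e-12). For Peg3 the wild-type line was itself 32.6-fold below control siRNA cells, as given above. Zim1 had 0.698 and 2.88 in H3.1K36M cells, against 16.2 and 14.2 in H3.3K36M cells and 0 in both wild-type libraries. Zim1 fell relative to H3.3K36M cells (adjusted p = 0.00181), and its difference from wild-type cells was not called (0.0617), though it was with no filter on low values (0.0275), without the trend and robust options (0.0352) and without H3.1K36M replicate 1 (0.0224).

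Grb10 had 20567 and 20064 in H3.1K36M cells, against 13891 and 14053 in H3.3K36M cells and 20958 and 20786 in wild-type cells. Against H3.3K36M cells it was higher by 0.54 (SE 0.03, adjusted p = 5.95e-10), and against wild-type cells the difference of -0.04, with a 95% interval of -0.10 to 0.02, was not called; with quantile normalisation it was -0.20 and was called. Impact was higher than in H3.3K36M cells by 0.61 and than in wild-type cells by 0.13. Cdkn1c had 0.698 and 0 in H3.1K36M cells, against 3.47 and 0.949 in H3.3K36M cells and 0 in both wild-type libraries.

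In the Peg10 and Sgce domain, Peg10 had 346 and 330 in H3.1K36M cells, against 662 and 680 in H3.3K36M cells and 536 and 524 in wild-type cells. Sgce had 841 and 809 in H3.1K36M cells, against 1210 and 1206 in H3.3K36M cells and 1984 and 2010 in wild-type cells. Both were lowest in H3.1K36M cells, with Peg10 at -0.99 and -0.65 and Sgce at -0.55 and -1.27 on the log2 scale against H3.3K36M and wild-type cells. Asb4 had 56.5 and 56.7 in H3.1K36M cells, against 33.5 and 37.0 in H3.3K36M cells and 4.01 and 2.89 in wild-type cells. It rose by 3.71 over wild-type cells (SE 0.29, adjusted p = 1.5e-08), and its difference of 0.67 from H3.3K36M cells was not called (0.0527), though it was with a pseudocount of 10 (0.00646), with quantile normalisation (0.000863) and without the trend and robust options (0.0138).

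Slc22a18 had 74.0 and 69.0 in H3.1K36M cells, against 210 and 221 in H3.3K36M cells and 218 and 224 in wild-type cells. It was lower by 1.58 than in H3.3K36M cells and by 1.61 than in wild-type cells (SE 0.11 each, adjusted p = 1.61e-08 and 4.79e-09). Its difference between the H3.3 lines was not called (adjusted p = 0.99 in the siRNA table). Gatm had 17.4 and 18.2 in H3.1K36M cells, against 21.4 and 14.2 in H3.3K36M cells and 0 in both wild-type libraries. Snrpn had 9.77 and 4.79 in H3.1K36M cells, against 24.9 and 30.4 in H3.3K36M cells and 0.668 and 0 in wild-type cells. The fall of Snrpn relative to H3.3K36M cells (adjusted p = 0.00474) was lost without H3.3K36M replicate 2 (0.0685) or H3.1K36M replicate 2 (0.0601).

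The amino acid transporter gene Slc38a4 had 41.9 and 46.0 in H3.1K36M cells, against 23.1 and 18.99 in H3.3K36M cells and 9.35 and 27.4 in wild-type cells. Its call against H3.3K36M cells (adjusted p = 0.0261) was lost without any 1 of the 4 libraries compared (0.073 to 0.154) and without the trend and robust options (0.142), and its call against wild-type cells (0.0038) was lost without those options (0.0607). Nnat, a small membrane protein of the endoplasmic reticulum, had 55.1 and 56.5 in H3.1K36M cells, against 37.6 and 32.3 in H3.3K36M cells and 25.4 and 24.5 in wild-type cells. It rose by 1.13 over wild-type cells (SE 0.22, adjusted p = 0.000272), and its call over H3.3K36M cells (0.0154) was lost without H3.3K36M replicate 2 (0.102) or either H3.1K36M replicate (0.0599 and 0.073). The remaining calls against wild-type cells were rises of Ndn, Mcts2 and Cd81 and falls of Copg2, Zrsr1 and Mkrn3, at -0.67 to 0.30 on the log2 scale. Of these, Mcts2 (adjusted p = 0.0843 and 0.0717) and Mkrn3 (0.0652 and 0.118) lost theirs without wild-type replicate 1 or H3.1K36M replicate 2, and Mkrn3 (0.0905) and Cd81 (0.13) did with quantile normalisation. Against H3.3K36M cells Ndn and Zrsr1 fell and Mcts2, Peg12, Cd81 and Gnas rose, at -0.25 to 0.57, and the Gnas call was lost with quantile normalisation (0.79).

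Tumors were compared with the H3.3K36M cells that were injected. Gatm, Kcnq1, Cdkn1c, Ppp1r9a, Ascl2 and Mest were higher in tumors, and Peg3, Plagl1, Zim1, Grb10, Dlk1 and Peg10 were lower. Of 31 members tested 10 rose, 14 fell and 7 were not called, and 75.2% of all 14842 genes tested were called, 41% higher, 34.2% lower and 47.1% by at least 2-fold. Of the 18 paternally expressed members tested 4 rose and 9 fell, with a median log2 difference of -0.92, and of the 13 maternally expressed 6 rose and 5 fell, with a median of 0.75. The median over all 31 was -0.23, against 0.14 over all genes. Cdkn1c, Snurf, Phlda2, Kcnq1, Ascl2, Ppp1r9a and Rasgrf1 passed the filter only through tumors, and Zim1 only through cells, so 6 of the rises and 1 of the falls are no support for a count. Of the other 23 members 4 rose and 13 fell, with a median of -0.97. The split by allele and its medians are no support either, as they hold all 31. Among the other 23, Gatm and Cd81 were the only maternally expressed rises. Calls of at least 2-fold were made for 8 higher and 11 lower members. Of those 8 only Gatm and Mest were among the 23. With no filter on low values the 7 calls of members that passed through 1 side only held. Quantile normalisation moved the median of all genes to -0.12, and under it 8 members rose and 17 fell, so small changes depend on the scaling. Under it 4906 of all 14842 genes were called higher and 5929 lower.

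Host cells were part of the tumor RNA, and fewer cells of a type cannot be told apart from less RNA per cell. The 8 macrophage markers summed to 105389 to 146562 in tumors, against 527 to 529 in H3.3K36M cells, and all 8 rose. The 8 endothelial markers summed to 10211 to 29570 in tumors, against 551 to 610 in H3.3K36M cells, and 7 rose. Skeletal muscle markers summed to 1184 to 20428 in tumors, against 445 to 463 in cells, with Pax7 at 0 in tumors. Keratinocyte and epithelial markers summed to 419 to 29232 in tumors, against 900 to 940 in cells, and adipocyte markers to 731 to 4356, against 390 to 444 in cells. Pericyte markers summed to 8581 to 12733 in tumors, against 16747 to 18137 in cells, yet Abcc9, Kcnj8 and Rgs5 rose and only Cspg4 of the 4 fell. The 10 mesenchymal markers summed to 284312 to 341707 in tumors, against 763763 to 816284 in cells. Both H3.3K36M cell libraries were at 0 for Cldn5, Myod1, Myog, Pax7, Krt1, Epcam, Plin1, Cidec and Lep. The part of these cells in each member's change below was not tested.

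Of the genes higher in tumors, Gatm ran from 4176 over a median of 4526 to 6004 in tumors, against 21.4 and 14.2 in H3.3K36M cells. Every tumor was far above both cell libraries, and the log2 difference was 7.98 (SE 0.17, adjusted p = 4.84e-10; 7.91 without tumor 6). Kcnq1, a voltage-gated potassium channel, ran from 231 over a median of 408 to 491 in tumors, against 0.578 and 8.54 in H3.3K36M cells, a rise of 6.58 (SE 0.58, adjusted p = 8.01e-06; 6.72 without tumor 6). Of its neighbours in the Kcnq1 domain, Cdkn1c, Ascl2 and Phlda2 were also low in cells, while Slc22a18 and Cd81 were not. Cdkn1c ran from 33.5 over a median of 59.1 to 86.6 in tumors, against 3.47 and 0.949 in H3.3K36M cells, a rise of 4.28 (SE 0.44, adjusted p = 2.23e-05; 4.23 without tumor 6). Ascl2, a basic helix-loop-helix factor of trophoblast and intestinal stem cells, ran from 22.8 over a median of 43.0 to 57.7 in tumors, against 2.31 and 0.949 in H3.3K36M cells. It rose by 3.96 (SE 0.42, adjusted p = 2.54e-05; 4.05 without tumor 6). Kcnq1, Cdkn1c and Ascl2 passed the filter only through tumors, and with no filter their adjusted p was 1.09e-05, 2.78e-05 and 2.99e-05. Phlda2, a growth-limiting gene of the placenta, had 8.14 to 16.8 in tumors, against 5.78 and 5.70 in cells, and was not called with all libraries (adjusted p = 0.0509). It was called without tumor 6 (0.0414) or tumor 2 (0.0422), without the filter on low values (0.044) and without the trend and robust options (0.00889).

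The actin-binding neurabin gene Ppp1r9a ran from 88.5 over a median of 115 to 125 in tumors, against 6.07 and 5.71 in H3.3K36M cells, a rise of 4.01 (SE 0.22, adjusted p = 3.29e-07; 4.02 without tumor 6). Rasgrf1, an exchange factor for Ras, had 4.08 to 12.7 in tumors and was listed at 0 in both H3.3K36M libraries (adjusted p = 0.0006; 0.000988 without tumor 6), a call lost with quantile normalisation (0.0799). Mest ran from 291 over a median of 476 to 522 in tumors, against 76.9 and 75.0 in H3.3K36M cells. It rose by 2.48 (SE 0.24, adjusted p = 1.47e-05; 2.44 without tumor 6). Wild-type cells had 307 and 286, and all tumors lay above the lower of these values and 1 tumor, at 291, below the higher. Snurf had 6.68 to 21.2 in tumors, against 5.79 and 0 in cells, and its call (adjusted p = 0.0162, and 0.0203 without tumor 6) was lost without H3.3K36M replicate 2 (0.262) or with quantile normalisation (0.366). Ppp1r9a, Rasgrf1 and Snurf passed the filter only through tumors, and with no filter their adjusted p was 4.16e-07, 0.000232 and 0.0171. Inpp5f, an inositol phosphatase gene, rose by 0.64 and Cd81 by 0.75, or by 0.63 and 0.82 without tumor 6.

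**Figure D3:**
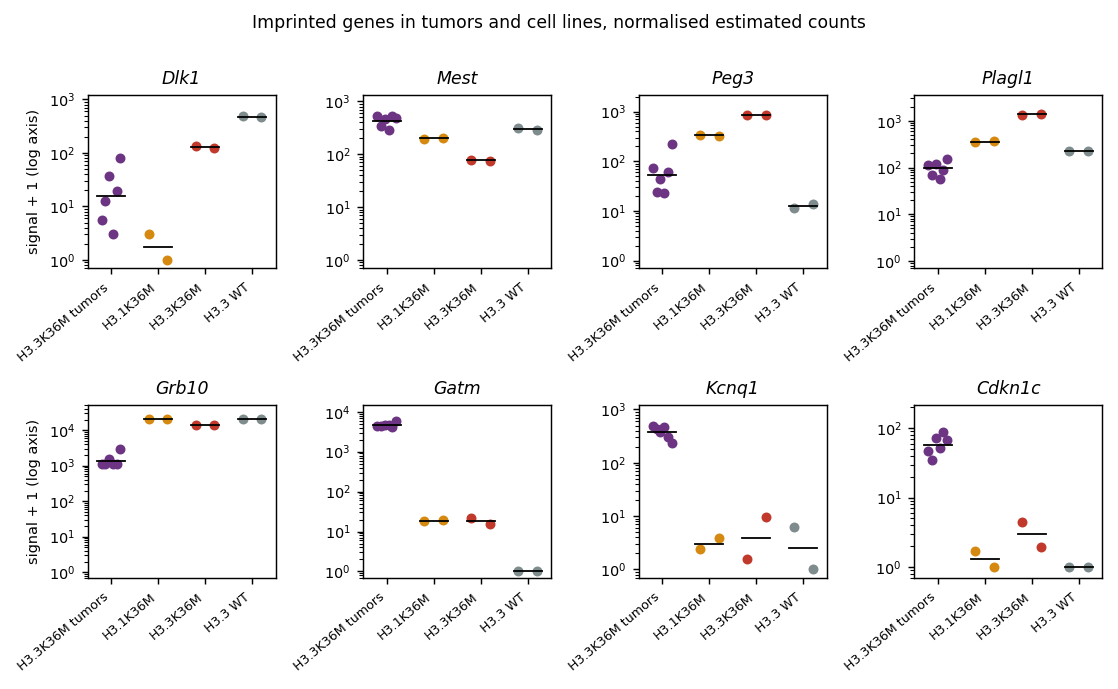
Signal plus 1 on a log axis for 8 imprinted genes in H3.3K36M tumors, H3.1K36M cells, H3.3K36M cells and H3.3 wild-type (WT) cells; each point is a library and each bar the mean of the log values. Gatm, Kcnq1 and Cdkn1c are high in all 6 tumors, while Plagl1 and Grb10 are lower in tumors than in any line.

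Peg3 had 71.7, 23.5, 43.5, 22.3, 59.2 and 226 in tumors 1 to 6, against 847 and 858 in H3.3K36M cells. No tumor reached the cell level, and tumor 6 was the highest. The log2 difference was -3.98 (SE 0.75, adjusted p = 0.00101; -4.39 without tumor 6). Plagl1 ran from 54.6 over a median of 102 to 151 in tumors, against 1338 and 1411 in H3.3K36M cells, a fall of 3.85 (SE 0.35, adjusted p = 9.84e-06; -3.98 without tumor 6). Zim1 was listed at 0 in tumors 2 to 5 and had 0.671 and 1.15 in tumors 1 and 6, against 16.2 and 14.2 in H3.3K36M cells (adjusted p = 0.000338; 0.000279 without tumor 6). Peg3 and Zim1, the 2 genes of this domain that were higher in H3.3K36M than in wild-type cells, were lower in tumors than in the injected line. Both comparisons rest on the same H3.3K36M libraries, and Zim1 passed the filter only through them, so this is no test of a reversal.

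Grb10 ran from 1094 over a median of 1116 to 2944 in tumors, against 13891 and 14053 in H3.3K36M cells. It fell by 3.34 (SE 0.35, adjusted p = 2.62e-05; -3.56 without tumor 6, the tumor with the highest value). Dlk1 had 4.69, 11.8, 36.7, 2.02, 18.8 and 79.1 in tumors 1 to 6, against 131 and 120 in H3.3K36M cells. Its tumors were spread widely but all lay below the cells, with a log2 difference of -3.04 (SE 1.08, adjusted p = 0.0277; -3.52 and 0.00539 without tumor 6). With only 1 H3.3K36M library kept, the Dlk1 call was lost (0.119 without replicate 1 and 0.108 without replicate 2). Ndn ran from 743 over a median of 817 to 1017 in tumors, against 1715 and 1714 in H3.3K36M cells, a fall of 1.03 (SE 0.12, adjusted p = 5.29e-05; -1.08 without tumor 6). Impact fell by 1.44 (SE 0.12, adjusted p = 6.8e-06; -1.42 without tumor 6).

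Peg10 ran from 102 over a median of 131 to 212 in tumors, against 662 and 680 in H3.3K36M cells, a fall of 2.28 (SE 0.25, adjusted p = 3.82e-05; -2.41 without tumor 6). Sgce did not follow it: it ran from 1164 over a median of 1343 to 1418 in tumors, against 1210 and 1206 in H3.3K36M cells, and the difference of 0.12, with a 95% interval of -0.10 to 0.34, was not called, nor was it without tumor 6 (0.12). Asb4 had 10.9 to 24.1 in tumors, against 33.5 and 37.0 in H3.3K36M cells (adjusted p = 0.0286, and 0.0149 without tumor 6), a call lost without either H3.3K36M library (0.106 and 0.151) and without tumor 2 (0.0512). Slc22a18 fell by 1.34, Copg2 by 1.11, Peg12 by 0.97, Mkrn3 by 0.93 and Zrsr1 by 0.91. Without tumor 6 their differences were -1.23 for Slc22a18, -1.21 for Copg2, -0.83 for Peg12, -1.01 for Mkrn3 and -0.95 for Zrsr1. Of these Peg12 (0.0910 and 0.0678) and Mkrn3 (0.0997 and 0.080) lost the call without either H3.3K36M library. Nnat ranged from 10.1 to 229 between tumors, with 174 and 229 in tumors 3 and 5, against 37.6 and 32.3 in cells. Slc38a4 ranged from 1.01 to 36.7 in tumors, against 23.1 and 18.99 in cells, and was not called (adjusted p = 0.18), though it was called lower without tumor 6 (0.0291). Gnas, Mcts2 and Snrpn, the last at 15.9 to 38.9 in tumors against 24.9 and 30.4 in cells, were not called, but with quantile normalisation Gnas (-0.68), Snrpn (-1.45) and Slc38a4 (-2.84) were called lower. Without tumor 6 all 24 calls held, 11 members rose and 15 fell. In that setting 6534 of all 14842 genes were called higher and 5573 lower.

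**Figure D4:**
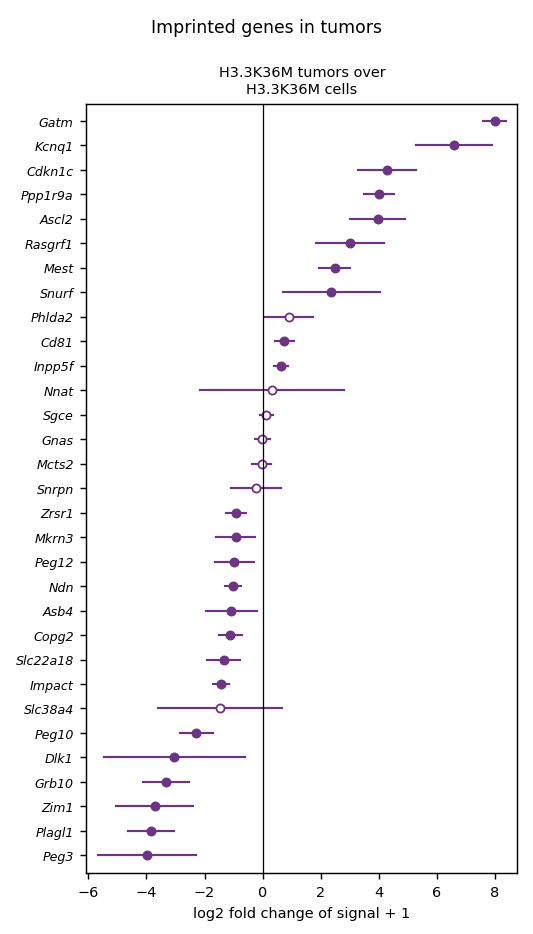
Log2 fold change of signal plus 1 in H3.3K36M tumors over H3.3K36M cells for the 31 imprinted genes tested, in order of size; lines are 95% intervals, filled points are called and open points are not. Gatm and Kcnq1 stand highest at 7.98 and 6.58, and Peg3 and Plagl1 lowest at -3.98 and -3.85.

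Of the 37 members 5 never reached a signal of 10 in any library. These were the Herc3 intronic gene Nap1l5, Usp29, the Ndn neighbour Magel2, the calcitonin receptor gene Calcr and Zdbf2, and Calcr was listed at 0 in all libraries. In culture Cdkn1c, Snurf, Phlda2, Kcnq1, Ascl2, Ppp1r9a, Rasgrf1 and the cation transporter gene Slc22a3 were also too low to be tested, and in tumors Slc22a3 was.

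A second list held 40 other imprinted genes, of which 35 had a row. In H3.3K36M over wild-type cells 13 of 28 tested rose and 8 fell, with a median of 0.07. The largest changes were in the Polycomb protein gene Sfmbt2 (log2 5.36), the fetal growth factor Igf2 (3.08), the amine-forming enzyme gene Ddc (-2.73), the paraoxonase Pon3 (2.41) and the chromatin reader Phf17 (2.06). Sfmbt2 had 315 and 314 in H3.3K36M cells, against 6.98 and 6.40 in wild-type cells. Igf2 had 321 and 313 in H3.3K36M cells, against 44.7 and 29.9 in wild-type cells. Both were far apart between these lines, as Peg3 was.

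In HMT siRNA cells 12 of the 28 rose and 8 fell, with a median of 0.12, led by Cpa4 (-1.83), Qpct (-1.34), Phf17 (1.28), Atp10a (1.01) and the matrix proteoglycan Dcn (0.91). The difference of responses was called higher for 9 and lower for 6, led by Sfmbt2 (4.45) and Igf2 (3.76). In H3.1K36M cells 12 rose and 12 fell against wild-type cells, led by Sfmbt2 (5.13), Ddc (-4.19) and Dcn (-4.03), and 11 rose and 9 fell against H3.3K36M cells, led by Dcn (-3.76) and Igf2 (-3.50). Igf2 had 33.7 and 38.3 in H3.1K36M cells, against 424 and 413 in H3.3K36M cells and 60.1 and 40.5 in wild-type cells. In tumors 13 of 30 rose and 9 fell, led by Dact2 (-2.90), the decoy receptor gene Tnfrsf23 (2.62), Dlx5 (-2.53), Cpa4 (2.48) and Dcn (2.45), and without tumor 6 there were 13 that rose and 10 that fell. Without that tumor 6534 of all 14842 genes were called higher and 5573 lower. In each comparison the share of this list called stands beside that of all genes as follows: 75% against 70.8% for H3.3K36M over wild-type cells, 71.4% against 63.5% for the knockdown, 53.6% against 54.9% for the difference, 85.7% against 79.5% and 71.4% against 68.2% for H3.1K36M cells, and 73.3% against 75.2% for tumors.

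A further list held 23 genes whose products set or keep imprints. In H3.3K36M over wild-type cells 10 of 21 tested rose and 6 fell, led by the methylcytosine oxidase Tet1 (-2.16), the imprint-keeping zinc finger factor Zfp57 (1.28), the remodeller Hells (1.15) and Uhrf1 (1.01), which brings Dnmt1 to newly copied DNA. Tet1 had 152 and 153 in H3.3K36M cells, against 684 and 686 in wild-type cells. Zfp57 had 474 and 496 in H3.3K36M cells, against 217 and 183 in wild-type cells. In HMT siRNA cells 11 rose and 6 fell, led by Uhrf1 (1.44), Hells, Tet1 (-1.11) and Dnmt1 (1.09). Tet1 thus fell and Uhrf1 and Hells rose in both comparisons, which share no library. They were named for their size, and of all genes called in both comparisons 82.8% moved in the same direction.

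The response of these factors was called different between mutant and knockdown for 12 of the 21, or 57.1% against 54.9% of all genes, with 4 higher in the mutant response, among them Zfp57 (1.73), and 8 lower, among them Tet1 (-1.04). In H3.1K36M cells 12 rose and 7 fell against wild-type cells, led by Tet1 (-2.48), Zfp57 (1.42) and the de novo methyltransferase Dnmt3a (-1.37). Against H3.3K36M cells 4 rose and 8 fell. Dnmt3a had 1034 and 960 in H3.1K36M cells, against 1949 and 1857 in H3.3K36M cells and 2548 and 2595 in wild-type cells. In tumors 3 of 22 rose and 12 fell, with a median of -0.69, led by Tet1 (-3.30) and Hells (-2.45), and without tumor 6 there were 3 that rose and 16 that fell, with a median of -0.82. Without that tumor 6534 of all 14842 genes were called higher and 5573 lower. The share of the factors called was 76.2% for H3.3K36M over wild-type cells, 81% for the knockdown, 90.5% and 57.1% for H3.1K36M over wild-type and over H3.3K36M cells and 68.2% for tumors, where all genes had 70.8%, 63.5%, 79.5%, 68.2% and 75.2%.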

How the data were processed

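RNA was sequenced from 12 cultured and 6 tumor libraries. The authors deposited signal tables, that is, estimated counts divided by 1 factor per library (median normalisation, per the deposited table names); Bowtie 1.0.0, RSEM 1.2.12 and the mm9 build are named in the submitters' processing notes. Values are not whole, so no count model was used. Tables were scaled separately and each comparison stayed in 1 table. Tests (two-sided) used limma 3.58.1 with R 4.3.3, with eBayes trend and robust options. The scale was log2(value + 1), which understates changes of low genes. Genes were kept where the number of libraries with a value of 10 or more was no smaller than the smallest group. The siRNA table gave 1 fit of 10 libraries, the xenograft table fits of 6 cultured libraries and of 8 (tumors and H3.3K36M cells). Other steps used Python 3.11.15, numpy 2.4.6, pandas 2.3.3 and matplotlib 3.10.9, and scripts were tested on simulated data. Members, gene lists (other imprinted genes, imprint factors, cell type markers) and tests were chosen with earlier results of these data known. Named with values in every library were a fixed set (Dlk1, Mest, Peg3, Plagl1, Cdkn1c, Grb10) and the called members with at least a 2-fold change, up to 12 per comparison; further members were added after their values were seen. Up to 5 genes of each list were named by size. Alternatives were another pseudocount (10), no filter, quantile normalisation, plain eBayes, a replicate block, other sets of libraries and each library left out. The result of 1 marker list is not reported here.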

Additional observations from a re-analysis of the deposited data

Results flagged for a closer look

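Among the 31 imprinted genes tested in tumors, 3 had 1 tumor whose gap to its nearest neighbour was large for the range of the 6, and in each case it was tumor 6, the one that stood apart over all genes. Grb10 was 2944 in tumor 6, with the next highest tumor at 1550. Gatm was 6004 in tumor 6, with the next highest at 4637. Copg2 was 1664 in tumor 6, with the next highest at 1149. Chance alone places about 1 in 20 groups past this limit. Skeletal muscle and endothelial markers were also highest in tumor 6, with sums of 20428 and 29570, against 1184 to 7458 and 10211 to 17801 in the other tumors, and their part in these values was not tested.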

How the results depend on the processing

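Across the alternatives, no count of called members moved by over 1.5 times. With control siRNA cells as the reference for H3.3K36M, Dlk1 reversed to 1.80. In the difference of responses, the uncalled values of Dlk1 and Mest turned to -0.43 and 0.11 with a pseudocount of 10, and that of Mest, -0.03 in the report, ranged from -0.085 to 0.026 when 1 library was left out; the cause was not tested. Quantile normalisation turned the difference of responses for Mest to -0.27 (adjusted p = 0.0193). With the replicate block, members called higher and lower were 8 and 11 for H3.3K36M over wild type, 3 and 14 for HMT siRNA over control, 9 and 4 for the difference, 11 and 8 for H3.1K36M over wild type, 9 and 10 for H3.1K36M over H3.3K36M and 9 and 14 for tumors over cells. Over all genes, in the same order, the calls were 5017 and 4457, 4278 and 4251, and 3727 and 3734 of 13186. For H3.1K36M cells they were 5490 and 5114, and 4717 and 4358, of 13404. For tumors they were 6761 and 5676 of 14842. In tumors the block ended the calls of Kcnq1 (6.89, adjusted p = 0.0798) and Asb4 (0.0575) and added that of Slc38a4 (0.0191). Equal replicate numbers did not pair the libraries: the correlation of deviations was 0.0789, 0.0278 and 0.0758 for HMT and control siRNA cells, and HMT siRNA replicate 1 correlated best with control siRNA replicate 2 (0.0894). Where 1 library was left in a group, it was assumed to vary like the others. Signals of 0 or a few reads are imprecise at this depth. Examples are those of Zim1, Snrpn, Gatm and Asb4 in wild-type and siRNA-treated cells and of Zim1 in H3.1K36M cells.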

Other observations

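Igf2, the fetal growth factor whose gene neighbours H19, split the tumors: it was 3732 and 2834 in tumors 1 and 6, and 231, 411, 274 and 359 in tumors 2 to 5, against 424 and 413 in H3.3K36M cells. Dcn ran from 2527 to 7792 in tumors, against 698 and 828 in H3.3K36M cells. Tnfrsf23 ran from 2167 to 6059 in tumors, against 648 and 626 in H3.3K36M cells. No explanation of these values was tested.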
